A study of Saccharomyces cerevisiae with 6 samples.

Results

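The positions described here are those of the yeast ribosomal DNA (rDNA) at which the RNA-DNA hybrid inside RNA polymerase I (Pol I) is expected to be rich in G and C. A position was taken as GC-rich when 7 or more of the 9 bases that end at it, itself included, were G or C in the deposited base column. The rule used sequence only, and found 365 of 6858 positions, or 5.32%. They were compared with the 4585 positions that had 3 to 5 G or C among those 9 bases. Of the 4585, 165 lay in internal transcribed spacer 2 (ITS2), which has no GC-rich position. Those 165 count in shares over the whole class, but not where GC-rich positions are compared within their own region. Native elongating transcript sequencing (NET-seq), which maps the 3′ ends of RNA that purifies with a polymerase, was run on Pol I from Saccharomyces cerevisiae. The genotypes were paf1△, cdc73△ and WT, with 2 libraries each, all from cells grown at 30ºC, and the labels give no other allele, age or treatment. The sources used here do not say whether the libraries of a genotype came from separate cultures, so p-values measure only the spread between these libraries.

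Pol I makes the 35S precursor, which carries the 18S, 5.8S and 25S rRNAs between external and internal transcribed spacers (5′ ETS, ITS1, ITS2 and 3′ ETS). Behind the active site of an elongating polymerase, the newest stretch of RNA stays paired with the template DNA strand as a short hybrid. Pairs of G and C hold this hybrid more firmly than pairs with A or U, and hybrid strength is among the sequence properties known to bear on pausing, backtracking and termination. Paf1 and Cdc73 are subunits of the Paf1 complex, which travels with elongating polymerases, Pol I included in yeast.

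The GC-rich positions formed 127 tracts, that is runs of neighbouring positions that pass the rule, of which 57 were a lone position. Positions of a tract share most of their hybrid bases and are not independent of each other. The 8 longest tracts and the longest tract of each region are shown because they are the longest GC-rich stretches that Pol I crosses in this transcript. Sequences are the transcript's bases from the deposited table, 5′ to 3′, minus strand of chromosome XII in build R64. Capitals mark every base that lies in a GC-rich hybrid of the tract, and lower case the flanks.
25S, positions 4914 to 4929, chrXII:462636-462669: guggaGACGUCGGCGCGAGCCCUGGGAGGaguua
18S, positions 2158 to 2170, chrXII:465395-465425: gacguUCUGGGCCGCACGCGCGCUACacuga
ITS1, positions 2596 to 2606, chrXII:464959-464987: ggagaGUCCAGCCGGGCCUGCGCUuaagu
3′ ETS, positions 6682 to 6692, chrXII:460873-460901: guacuGGCAGGAGCCGGGGCCUAGuuuag
18S, positions 1347 to 1356, chrXII:466209-466236: gaacuUUGGGCCCGGUUGGCCGGuccga
18S, positions 1574 to 1583, chrXII:465982-466009: uaauaGGGACGGUCGGGGGCAUCaguau
25S, positions 4483 to 4491, chrXII:463074-463100: cuagaCAGCCGGACGGUGGCCAuggaa
25S, positions 5025 to 5033, chrXII:462532-462558: ccuuuGCUGGCUCCGGUGCGCUuguga
5.8S, positions 2981 to 2985, chrXII:464580-464602: gcacaUUGCGCCCCUUGGuauuc
5′ ETS, positions 361 to 363, chrXII:467202-467222: ugaauAGCCGGUCGCAagacu

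The GC-rich positions were spread unevenly over the transcript. Of the 365, 196 lay in 25S, 112 in 18S, 22 in ITS1, 13 in the 5′ ETS, 11 in 5.8S and 11 in the 3′ ETS, and ITS2 held none. The 5′ ETS was poorest among the regions that had any, with 1.86% of its positions, against 6.22% in 18S and 5.77% in 25S. The 11 positions of the 3′ ETS were 1 tract, and the 22 of ITS1 were 3 tracts. The hybrids held more G than C, with 4.22 G and 2.99 C on average. The base at the RNA 3′ end was G at 165 positions, C at 124, U at 39 and A at 37. The surroundings were close to those of the comparison positions, with 47.5% against 45.4% G or C in the 30 bases before the hybrid and 47.2% against 45.6% in the 9 bases after it. None of the 365 lay within 10 nt of the mature 18S, 5.8S or 25S 3′ ends.

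The deposited signal is the number of reads at a position, scaled in each library to a total of 1000000 over positions 1 to 6739. All 365 positions had reads in all 6 libraries and none was lost to a filter. The median GC-rich position was covered by 1873 to 3983 reads in the 4 deletion libraries, taking their smallest value as 1 read, and by 61 and 29 reads in WT. On that scale the deletion libraries held 14203939.5 to 29671814 reads in all, against 480708 and 226202 in WT. Against WT, genotype and depth, with any batch behind it, cannot be told apart. The signal is relative, and total Pol I on the rDNA was not measured. Replicate libraries ranked the GC-rich positions alike, with a Spearman rho across the 365 positions of 0.974 in paf1△, 0.992 in cdc73△ and 0.953 in WT. The assay does not split nascent from mature RNA, so signal within 18S, 5.8S and 25S can include both.

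GC-rich hybrid positions carried more signal than positions of middling composition in all 6 libraries. They held 7.44% and 7.23% of the signal in paf1△, 8.93% and 9.21% in cdc73△ and 7.54% and 6.82% in WT, on 5.32% of the positions. The cdc73△ libraries were the highest, and the paf1△ and WT libraries overlapped. The level was then set against composition within regions, as the log2 ratio of the summed signal at GC-rich positions over the sum they would have at the mean of the 3 to 5 class in their own region. This log2 ratio was 0.38 and 0.33 in paf1△, 0.66 and 0.72 in cdc73△ and 0.52 and 0.33 in WT. The genotype means were 0.35 ± 0.04 in paf1△, 0.69 ± 0.04 in cdc73△ and 0.43 ± 0.13 in WT (SD, n = 2 each), or as folds 1.28 in paf1△, 1.62 in cdc73△ and 1.34 in WT. The cdc73△ ratio exceeded that of WT by 0.27 and that of paf1△ by 0.34 with no overlap of libraries, and the difference of paf1△ from WT was -0.07 with overlap. No p-value is given for these sums over chosen positions, and 2 against 2 libraries could not reach below 0.333 in an exact permutation test.

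The size of the excess of cdc73△ over WT depended on how it was measured. With signal capped at the 99th percentile it was 0.17, on means of log2 values 0.10 and without WT replicate 2 0.18. With an 8-base hybrid, where the number of G or C required also changed, it was 0.04. With comparison positions matched also on the base at the RNA 3′ end, the ratios were 0.52 and 0.47 in paf1△, 0.78 and 0.84 in cdc73△ and 0.59 and 0.41 in WT.

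Signal was higher the more G and C the hybrid held, up to 7 of 9, in all libraries, except that in both WT libraries the class with 4 lay just below that with 3. At 49 positions with no G or C among the 9 bases the log2 ratio was -1.26 and -1.33 in paf1△, -1.69 and -1.55 in cdc73△ and -0.89 and -0.70 in WT. At 262 positions with 1 such base it was -0.61 and -0.75 in paf1△, -0.87 and -0.82 in cdc73△ and -0.44 and -0.39 in WT. At the poor end the cdc73△ libraries were thus the lowest and the WT libraries the least low, with no overlap between the 3 genotypes in either class. Just outside the threshold, 837 positions with 6 G or C had 0.18 and 0.20 in paf1△, 0.27 and 0.29 in cdc73△ and 0.41 and 0.32 in WT. Just inside it, 291 positions with 7 had 0.37 and 0.34 in paf1△, 0.66 and 0.72 in cdc73△ and 0.52 and 0.34 in WT. The step from 6 to 7 was larger in both cdc73△ libraries than in any other library. The 73 positions with 8 G or C were close to those with 7, at 0.42 and 0.29 in paf1△, 0.67 and 0.73 in cdc73△ and 0.50 and 0.29 in WT.

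**Figure D1:**
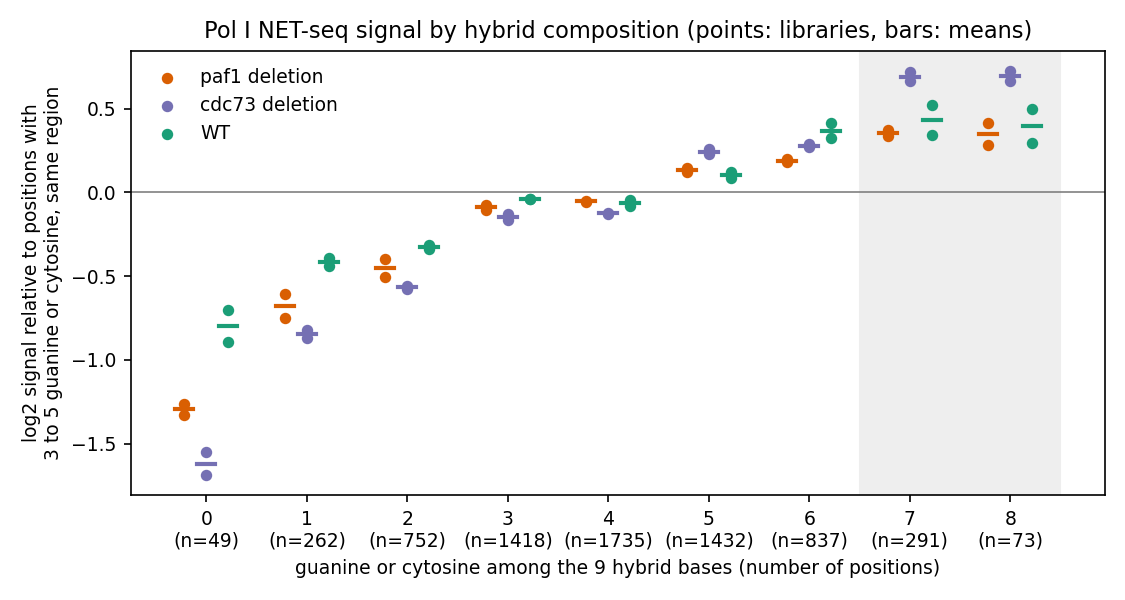
Pol I NET-seq signal by the number of G or C among the 9 hybrid bases, as log2 relative to positions with 3 to 5 in the same region; points are libraries, bars are means of 2, and the shaded classes are the GC-rich positions. From 0 to 7 each class lies above the one before it, apart from WT between 3 and 4, and at 7 and 8 both cdc73△ libraries lie above the rest, at 0.66 to 0.73.

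The only position with 9 of 9, 6689 in the 3′ ETS (chromosome XII 460881), had 5.73 and 5.35 in paf1△, 3.69 and 4.61 in cdc73△ and 25 and 17.7 in WT, in a region of low signal. Relative to the 3 to 5 class of that region its log2 ratio was -0.61 and -0.70 in paf1△ and -1.04 and -0.65 in cdc73△, against 0.56 and 0.32 in WT. The WT values rest on few reads: the median GC-rich position there, with a signal of 127 and 128, had only 61 and 29 reads. Its hybrid, shown with flanks and in capitals, is the densest of the transcript.
Position 6689, chrXII:460871-460899: acuggcaggaGCCGGGGCCuaguuuagag

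By region, GC-rich positions lay above the 3 to 5 class in the 5′ ETS, 18S, 25S and the 3′ ETS in all 6 libraries, and in 5.8S they did so in 1 library. In 25S, the large-subunit rRNA, the log2 ratio was 0.54 and 0.47 in paf1△, 0.71 and 0.76 in cdc73△ and 0.61 and 0.44 in WT. In 18S, the small-subunit rRNA, it was 0.15 and 0.09 in paf1△, 0.62 and 0.70 in cdc73△ and 0.34 and 0.14 in WT. In both, the cdc73△ libraries were above the other 4. In ITS1, the spacer cut out between 18S and 5.8S, the ratio was 0.11 and -0.02 in paf1△, 1.01 and 1.12 in cdc73△ and 1.13 and 1.01 in WT. In that spacer paf1△ stood apart, and GC-rich positions there had a mean signal of 33.0 and 29.5 in paf1△ against 46.0 and 46.6 in cdc73△ and 77.8 and 74.8 in WT. In the 3′ ETS, downstream of 25S, the ratio was 0.73 and 0.41 in paf1△, 2.34 and 2.53 in cdc73△ and 1.36 and 1.47 in WT, with no overlap among the genotypes. That value describes 1 tract of 11 positions. Their mean signal was 14.5 and 11.6 in paf1△, 38.4 and 41.8 in cdc73△ and 43.7 and 39.4 in WT. The 3 to 5 class there had 8.74 and 8.72 in paf1△, 7.58 and 7.23 in cdc73△ and 17 and 14.2 in WT. The higher ratio of cdc73△ than WT thus came with lower signal in the comparison class, not with higher signal at the GC-rich positions.

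The 5.8S ratio, over 11 positions, was -0.33 and -0.42 in paf1△, -0.14 and 0.02 in cdc73△ and -0.42 and -0.13 in WT. In the 5′ ETS, the leader removed before 18S, the ratio was 0.80 and 1.15 in paf1△, 0.38 and 0.32 in cdc73△ and 0.64 and 0.07 in WT. The 5′ ETS value rested on position 437: without it the ratio was -0.58 and -0.62 in paf1△, -0.22 and -0.19 in cdc73△ and 0.05 and -0.99 in WT. Without its highest position, 2617, ITS1 had -0.20 and -0.35 in paf1△, 1.07 and 1.18 in cdc73△ and 0.66 and 0.62 in WT. Without position 2983 the 5.8S ratio was -1.0 and -1.05 in paf1△, -0.99 and -0.91 in cdc73△ and -0.50 and -0.24 in WT.

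**Figure D2:**
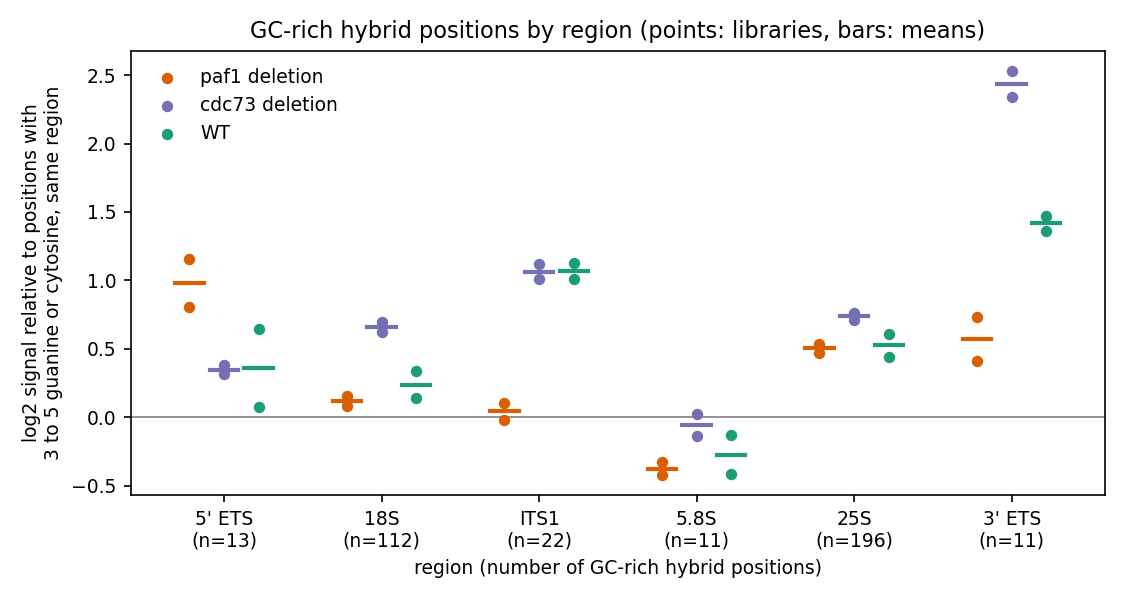
Log2 signal of GC-rich positions relative to positions with 3 to 5 G or C in the same region; points are libraries, bars are means of 2, and ITS2 has no GC-rich position. In ITS1 and the 3′ ETS the paf1△ libraries lie below both other genotypes, and in 18S and 25S the cdc73△ libraries lie above them.

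The balance of G against C in the hybrid went with a wider range of signal in WT than in the deletions. At the 30 GC-rich positions with 0 to 2 G the log2 ratio was 0.17 and 0.06 in paf1△ and 0.38 and 0.46 in cdc73△, against -0.38 and -0.36 in WT. At the 60 positions with 3 G it was 0.35 and 0.16 in paf1△ and 0.46 and 0.60 in cdc73△, against -0.08 and -0.15 in WT. Both classes lay below the middling class in both WT libraries and above it in all 4 deletion libraries, but in paf1△ this rested on 1 position each. Without position 2983 the 0 to 2 class had -0.0072 and -0.09 in paf1△, 0.21 and 0.25 in cdc73△ and -0.40 and -0.40 in WT. Without position 5046 the 3-G class had -0.04 and -0.15 in paf1△, 0.0068 and 0.12 in cdc73△ and -0.13 and -0.21 in WT. At the 50 positions with 6 or more G, WT was the highest genotype, with 0.78 and 0.72 in paf1△ and 1.09 and 1.03 in cdc73△, against 1.6 and 1.19 in WT. At 127 positions with 4 G the values were 0.40 and 0.36 in paf1△, 0.78 and 0.89 in cdc73△ and 0.19 and 0.16 in WT. At 98 positions with 5 G they were 0.19 and 0.22 in paf1△, 0.43 and 0.45 in cdc73△ and 0.55 and 0.37 in WT.

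The gap between the 148 positions with 5 or more G and the 90 with 3 or fewer was 0.13 and 0.29 in paf1△, 0.26 and 0.13 in cdc73△ and 1.18 and 0.93 in WT. The WT libraries stood apart from all 4 others. On means of log2 values the gap was 0.23 in paf1△, 0.32 in cdc73△ and 0.64 in WT, and with signal capped at the 99th percentile it was 0.37, 0.41 and 0.95 in the same order. Positions with 3 to 5 G or C also had a higher signal at 5 G than at 0 G, with means of 0.54 and -0.14 in paf1△, 0.77 and 0.04 in cdc73△ and 0.84 and -0.27 in WT. The span was widest in WT there too, so a wider range in WT is not particular to GC-rich positions.

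**Figure D3:**
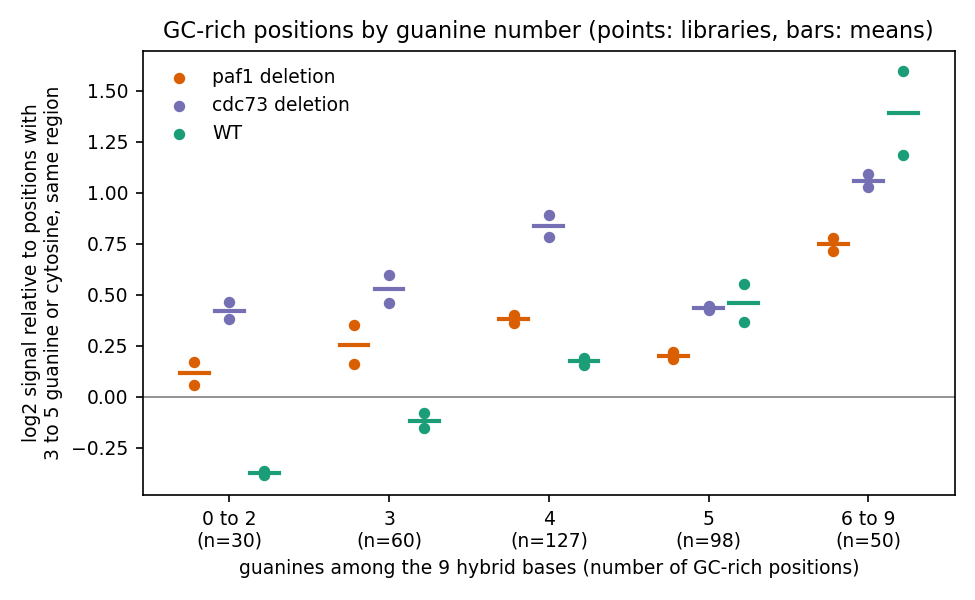
Log2 signal of GC-rich positions relative to positions with 3 to 5 G or C in the same region, by the number of guanines among the 9 hybrid bases; points are libraries and bars are means of 2. WT climbs from -0.37 at 0 to 2 guanines to 1.39 at 6 to 9, and the deletions have a flatter course.

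By the last RNA base, levels at GC-rich positions followed in part those of the same base elsewhere. The 37 that ended in A were high in all libraries, at 0.83 and 0.76 in paf1△, 0.92 and 0.93 in cdc73△ and 0.96 and 0.86 in WT. Position 6543 ends in A, and without it they had 0.73 and 0.67 in paf1△, 0.90 and 0.92 in cdc73△ and 0.64 and 0.65 in WT. The 39 that ended in U were higher in all deletion libraries than in WT, at 0.81 and 0.68 in paf1△ and 1.08 and 1.21 in cdc73△, against 0.24 and 0.03 in WT. Position 5046 ends in U, and without it the U class had 0.35 and 0.33 in paf1△, 0.62 and 0.72 in cdc73△ and 0.18 and -0.04 in WT. Positions that ended in C had 0.33 and 0.25 in paf1△, 0.73 and 0.79 in cdc73△ and 0.52 and 0.35 in WT. Those that ended in G had 0.17 and 0.17 in paf1△, 0.42 and 0.47 in cdc73△ and 0.46 and 0.24 in WT. Positions of the 3 to 5 class that ended in A were themselves at 0.36 and 0.35 in paf1△, 0.05 and 0.05 in cdc73△ and 0.26 and 0.26 in WT. Those that ended in G were at -0.31 and -0.28 in paf1△, -0.40 and -0.41 in cdc73△ and -0.18 and -0.20 in WT. Against the 3 to 5 class of the same last base, GC-rich positions ending in A had 0.49 and 0.42 in paf1△, 0.85 and 0.85 in cdc73△ and 0.73 and 0.62 in WT. On that scale those ending in G had 0.50 and 0.47 in paf1△, 0.83 and 0.89 in cdc73△ and 0.64 and 0.44 in WT, so A did not stand out from G in the deletions. Without position 6543, those ending in A had 0.39 and 0.33 in paf1△, 0.82 and 0.85 in cdc73△ and 0.41 and 0.41 in WT. In WT, A thus lay above G only with that position.

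The first comparison asked how loss of PAF1 changed signal at GC-rich positions. The test was limma on log2(signal + 48.1) over all positions with reads in at least 2 of the 4 libraries, with Benjamini-Hochberg adjustment and a threshold of 0.05, and the constant understates the change of low positions. Of the 365 GC-rich positions 85 were higher in paf1△ and 89 lower, that is 23.3% and 24.4%. Over all 6839 tested positions 29.6% were called higher and 19.6% lower. The positions with 3 to 5 G or C had 32.5% higher and 18.8% lower. The median log2 change was 0.04 at GC-rich positions and 0.09 over all positions. With library medians set equal, which moved the median of all positions by -0.10, 67 were higher and 110 lower, against 22.0% and 24.2% of all positions.

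In the spacers the calls at GC-rich positions were nearly all toward lower signal in paf1△. In the 5′ ETS 7 of 13 were lower and 0 higher, in ITS1 12 of 22 lower and 1 higher, and in the 3′ ETS 7 of 11 lower and 0 higher. At positions of 3 to 5 G or C in those regions the called share was 43.6% lower in the 5′ ETS, 24.6% in ITS1 and 15.7% in the 3′ ETS. In 25S 60 of 196 (30.6%) were called higher and 39 (19.9%) lower, where the 3 to 5 class had 38.2% and 16.4%. In 18S 20 of 112 (17.9%) were called higher and 22 (19.6%) lower, against 33.0% and 14.6%. In 5.8S 4 of 11 (36.4%) were called higher and 2 (18.2%) lower, against 67.8% and 0.87%. In these 3 genes the share of higher calls was thus below that of the 3 to 5 class, a difference that was not tested. By guanine number, 16 of 30 positions with 0 to 2 G (53.3%) were higher and 4 (13.3%) lower. Of 50 with 6 to 9 G, 4 (8%) were higher and 16 (32%) lower, against 29.6% and 19.6% of all positions.

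Named here are the called positions with a mean signal no lower than the median tested position and no overlap between the libraries of the genotypes. The largest rises in paf1△ were at 5046, 6029, 4274, 2983 and 5045, of which 2983 lies in 5.8S and the rest in 25S. Position 5046 (chromosome XII 462524) had a signal of 3076 and 2267 in paf1△ against 423 and 434 in WT, a log2 change of 2.50 (SE 0.22, limma adjusted p = 0.000158). The other 4 rose by log2 2.05 to 2.25. The largest falls were at positions 4772, 4633, 4668, 4667 and 6505, all in 25S. Position 4772 (chromosome XII 462798) had 279 and 347 in paf1△ against 2105 and 1996 in WT, a log2 change of -2.54 (SE 0.19, limma adjusted p = 8.06e-05). The other 4 changed by log2 -2.09 to -2.14. The sequences of the 3 strongest in each direction are shown for their different base content, with the hybrid in capitals: the rises held 3 or 4 G among the 9 bases and the falls 5 or 6.
Rise, position 5046, chrXII:462514-462542: ugcgcuugugACGGCCCGUgaaaauccac
Rise, position 6029, chrXII:461531-461559: cgauccuuuaGUCCCUCGGaauuugaggc
Rise, position 4274, chrXII:463286-463314: gauuagagguUCCGGGGUCgaaaugaccu
Fall, position 4772, chrXII:462788-462816: aacagcaguuGGACGUGGGuuagucgauc
Fall, position 4633, chrXII:462927-462955: cgaguaggcaGGCGUGGAGgucagugacg
Fall, position 4668, chrXII:462892-462920: agaccguaagGUCGGGUCGaacggccucu

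The same was asked for loss of CDC73, with limma on log2(signal + 44.3). In cdc73△ 132 of 365 GC-rich positions were higher and 91 lower, that is 36.2% and 24.9%. Over all 6839 tested positions 30.0% were called higher and 29.4% lower, and in the 3 to 5 class 31.4% and 28.9%. The median log2 change was 0.10 at GC-rich positions and -0.0049 over all positions. With library medians set equal, 129 were higher and 92 lower, against 29.9% and 29.7% of all positions. On the reads recovered from the scaled values, edgeR's quasi-likelihood test called 144 GC-rich positions higher and 92 lower, where 33.2% and 30.0% of all positions were called. The WT libraries are the same as in the first comparison.

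In 18S 45 of 112 GC-rich positions (40.2%) were called higher in cdc73△ and 23 (20.5%) lower, where the 3 to 5 class had 30.1% higher and 29.3% lower. In 25S the shares were near those of the region, with 77 of 196 (39.3%) higher and 46 (23.5%) lower, against 37.5% and 23.7% in the 3 to 5 class. In 5.8S 4 of 11 were higher and 2 lower, where the 3 to 5 class had 46.1% and 12.2%. In the 5′ ETS 1 of 13 was higher and 8 (61.5%) lower, where the 3 to 5 class had 14.9% and 52.0%. In ITS1 4 of 22 were higher and 10 (45.5%) lower, against 14.7% and 36.6%. In the 3′ ETS 1 of 11 was higher and 2 (18.2%) lower, against 4.44% and 27.8%. Of 30 positions with 0 to 2 G, 15 (50%) were higher and 5 (16.7%) lower. Of 50 with 6 to 9 G, 16 (32%) were higher and 16 (32%) lower, against 30.0% and 29.4% of all positions.

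The largest rises in cdc73△ were at positions 6318, 5046, 5045, 4274 and 5048, all in 25S. Position 6318 (chromosome XII 461252) had 3259 and 3604 in cdc73△ against 356 and 381 in WT, a log2 change of 3.07 (SE 0.14, limma adjusted p = 0.000111). Position 5046 had 3666 and 4170 in cdc73△ against 423 and 434 in WT, a log2 change of 3.07 (SE 0.15, limma adjusted p = 0.000119). The neighbours of 5046 had calls in the same direction: all 6 GC-rich positions from 5043 to 5048, a tract looked at after its values were seen, were called higher in both deletions. The largest falls were at 2617 in ITS1, 503 in the 5′ ETS, and 4772, 5331 and 6505 in 25S. Position 2617 (chromosome XII 464953) had 8.85 and 6.48 in cdc73△ against 529 and 451 in WT, a log2 change of -3.36 (SE 0.13, limma adjusted p = 0.000103). Position 503 had 36.7 and 26.7 in cdc73△ against 1202 and 345 in WT, with a wide gap between the WT libraries, and a log2 change of -3.20 (SE 0.51, limma adjusted p = 0.00312). The hybrids of the strongest rise and the strongest fall, in capitals, had 4 and 5 G. This was no rule among the named positions, as the rise at 5046 and the fall at 5331 both had 3 G.
Rise, position 6318, chrXII:461242-461270: auugguuuuuGCGGCUGUCugaucaggca
Fall, position 2617, chrXII:464943-464971: ccugcgcuuaAGUGCGCGGucuugcuagg

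Both deletions were then compared directly, paf1△ over cdc73△, with libraries of closer depth and limma on log2(signal + 47.4). In paf1△ 67 of 365 GC-rich positions were higher than in cdc73△ and 129 were lower, that is 18.4% and 35.3%. Over all 6846 tested positions the shares ran the other way, with 34.4% called higher and 20.6% lower, and in the 3 to 5 class 35.2% and 19.9%. Positions with 6 G or C had 28.3% higher and 25.2% lower, and those with 0 to 2 had 41.6% higher and 14.9% lower. The median log2 difference was -0.14 at GC-rich positions and 0.07 over all positions. With library medians set equal, 45 were higher and 176 lower, against 25.5% and 28.9% of all positions.

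**Figure D4:**
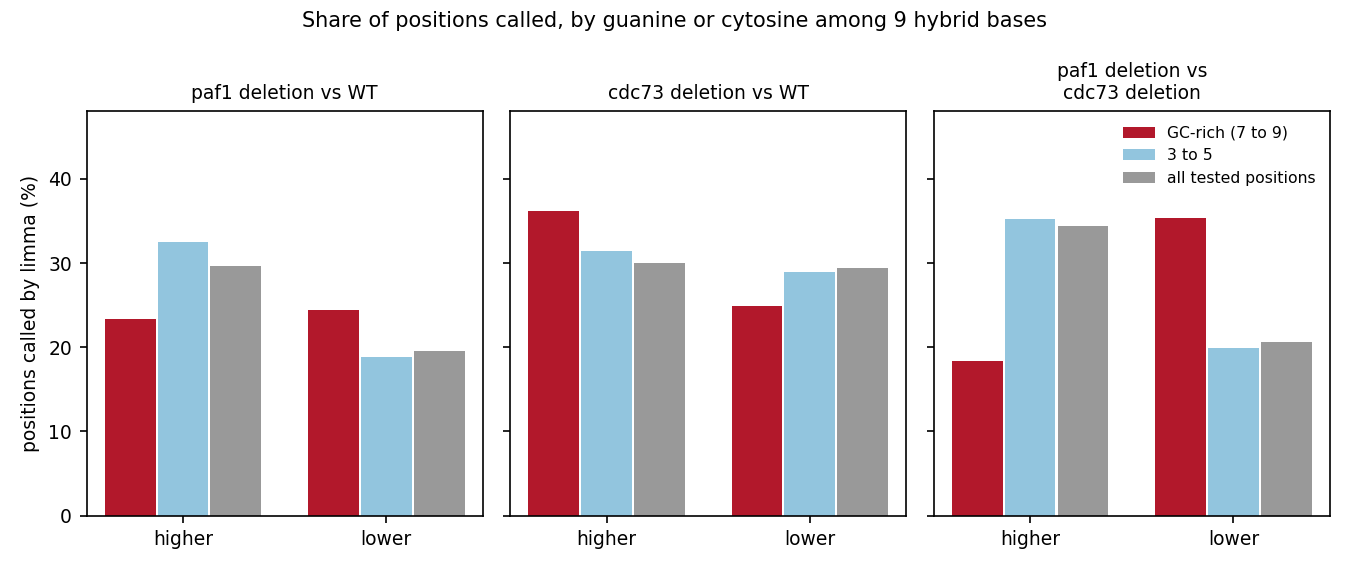
Share of positions called higher or lower by limma at an adjusted p under 0.05 (bars, percent of positions tested), for GC-rich positions, positions with 3 to 5 G or C and all tested positions. In paf1△ against cdc73△ the GC-rich positions had 18.4% higher and 35.3% lower, where all positions had 34.4% and 20.6%.

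In 18S 11 of 112 GC-rich positions were higher in paf1△ than in cdc73△ and 47 lower, where the 3 to 5 class had 41.2% higher and 17.6% lower. In 25S 41 of 196 were higher and 60 lower, against 27.5% and 18.7%. In ITS1 6 of 22 (27.3%) were called higher and 11 (50%) lower, against 51.3% and 22.5%. In the 3′ ETS 1 of 11 (9.09%) was called higher and 7 (63.6%) lower, against 31.1% and 20%. In the 5′ ETS the shares were near those of the region, with 5 of 13 (38.5%) higher and 4 (30.8%) lower, against 46.6% and 31.5%. In 5.8S 3 of 11 (27.3%) were called higher and 0 lower, against 45.2% and 2.61%. By guanine number, 16.7% of 30 positions with 0 to 2 G were higher and 16.7% lower. The shares were 30% and 25% of 60 with 3 G, and 15.7% and 40.9% of 127 with 4 G. They were 20.4% and 37.8% of 98 with 5 G, and 8% and 40% of 50 with 6 to 9 G. Over all positions they were 34.4% and 20.6%.

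Among positions with a mean signal at or above the median, those with the largest falls in paf1△ relative to cdc73△ were 2596 and 2604 in ITS1, 4490 in 25S, 1132 in 18S and 438 in the 5′ ETS. Position 2596 (chromosome XII 464974) had 25.2 and 20.7 in paf1△ against 216 and 207 in cdc73△, a log2 difference of -1.88 (SE 0.10, limma adjusted p = 4.17e-06). In WT it had 60.4 and 66.4, between the deletions. Position 2604 had 22.0 and 16.7 in paf1△ against 182 and 200 in cdc73△ (log2 -1.84, limma adjusted p = 4.73e-06). Those with the largest rises in paf1△ relative to cdc73△ were 503 and 437 in the 5′ ETS, 4629 and 5027 in 25S and 1348 in 18S. Position 437 (chromosome XII 467133) had 957 and 1423 in paf1△ against 349 and 318 in cdc73△, a log2 difference of 1.68 (SE 0.18, limma adjusted p = 0.000137), and 1175 and 991 in WT. Position 2617, whose mean over both deletions is below that median, differed by log2 1.91 (limma adjusted p = 3.2e-06). The base after 437, position 438, differed in the other direction, with 74.7 and 90.7 in paf1△ against 285 and 327 in cdc73△ (log2 -1.44, limma adjusted p = 3.01e-05). This neighbouring pair shares 8 hybrid bases, shown in capitals.
Position 437, chrXII:467123-467151: auuccgugaaACACCGGGGuaucuguuug
Position 438, chrXII:467122-467150: uuccgugaaaCACCGGGGUaucuguuugg

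Individual bases of a tract could differ between genotypes by more than its mean. The longest tract, 4914 to 4929 in 25S, had a mean signal of 160 and 131 in paf1△, 173 and 186 in cdc73△ and 210 and 176 in WT. Within it, the adjacent C positions 4920 and 4921 were lower in both deletions, with 125 and 113 in paf1△ and 139 and 138 in cdc73△ against 437 and 345 in WT at position 4920. Position 4922, the next C, separated the deletions, with 277 and 207 in paf1△ and 87.1 and 90.2 in cdc73△ against 356 and 367 in WT.

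The ITS1 tract from 2596 to 2606 had a mean of 34.5 and 27.7 in paf1△, 69.1 and 71.7 in cdc73△ and 63.8 and 64.4 in WT. The like means of cdc73△ and WT hid opposite differences at individual bases: in cdc73△ against WT positions 2596, 2600, 2601 and 2604 were called higher and 2597, 2605 and 2606 lower. Position 2605 had 100.9 and 69.5 in paf1△ and 12.9 and 14.3 in cdc73△, against 146 and 128 in WT. The 3′ ETS tract from 6682 to 6692 had 14.5 and 11.6 in paf1△, 38.4 and 41.8 in cdc73△ and 43.7 and 39.4 in WT. There 7 of 11 positions were lower in paf1△ than in WT and 7 lower than in cdc73△.

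The 18S tract from 1574 to 1583 had 409 and 425 in paf1△, 681 and 679 in cdc73△ and 407 and 346 in WT. In it 7 of 10 positions were higher in cdc73△ than in WT, and 2 were higher in paf1△. Position 1580, a C, had 655 and 605 in paf1△, 1399 and 1356 in cdc73△ and 758 and 491 in WT. The 25S tract from 4483 to 4491 had 158 and 156 in paf1△, 297 and 306 in cdc73△ and 107 and 126 in WT, with 8 of 9 positions higher in cdc73△ than in WT. The 5.8S tract from 2981 to 2985 had a higher mean in both deletions, at 357 and 286 in paf1△ and 334 and 380 in cdc73△ against 61.6 and 89.4 in WT. The 18S tract from 2158 to 2170 had near means, with 192 and 178 in paf1△, 200 and 200 in cdc73△ and 196 and 193 in WT, although 4 of its positions were called higher and 3 lower in cdc73△ against WT.

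In 2 of the 3 remaining tracts WT was the highest genotype. The 18S tract from 1347 to 1356 had 197 and 204 in paf1△, 163 and 186 in cdc73△ and 189 and 148 in WT. The 25S tract from 5025 to 5033 had a lower mean in both deletions, at 88.5 and 114 in paf1△ and 95.4 and 98.3 in cdc73△ against 144 and 154 in WT. The 5′ ETS tract from 361 to 363 had 26 and 17.9 in paf1△, 25.3 and 32.7 in cdc73△ and 50.7 and 39.8 in WT.

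Whether the excess sits at the hybrid itself was described by applying the rule to 9-base windows that ended up to 30 nt upstream or downstream of the RNA 3′ end. Near the 3′ end the log2 ratio was highest in all 6 libraries for the window that ended 1 nt upstream, at 0.50 and 0.46 in paf1△, 0.72 and 0.80 in cdc73△ and 0.58 and 0.43 in WT. For windows ending 9 nt upstream, which share no base with the hybrid, it was -0.30 and -0.38 in paf1△, 0.11 and 0.15 in cdc73△ and -0.01 and -0.08 in WT. For windows ending 9 nt downstream, on DNA not yet transcribed, it was -0.27 and -0.25 in paf1△, -0.26 and -0.25 in cdc73△ and 0.12 and 0.05 in WT. The hybrid-sized window at the 3′ end thus held more of the excess than the windows ending 9 nt to either side in every library. A second maximum lay 15 to 20 nt downstream in all libraries, at 0.34 and 0.32 in paf1△, 0.37 and 0.40 in cdc73△ and 0.53 and 0.48 in WT. In WT replicate 2 that maximum, 16 nt downstream, exceeded the one 1 nt upstream. In both WT libraries the downstream maximum also exceeded the window that ends at the RNA 3′ end itself, which had 0.52 and 0.33. With that second maximum, the excess was not confined to the hybrid in any library. The window at the RNA 3′ end had 0.38 and 0.33 in paf1△, near the downstream maximum there, and 0.66 and 0.72 in cdc73△. At 27 nt upstream the ratio was -0.20 and -0.20 in paf1△ and -0.16 and -0.14 in cdc73△, against 0.26 and 0.33 in WT.

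**Figure D5:**
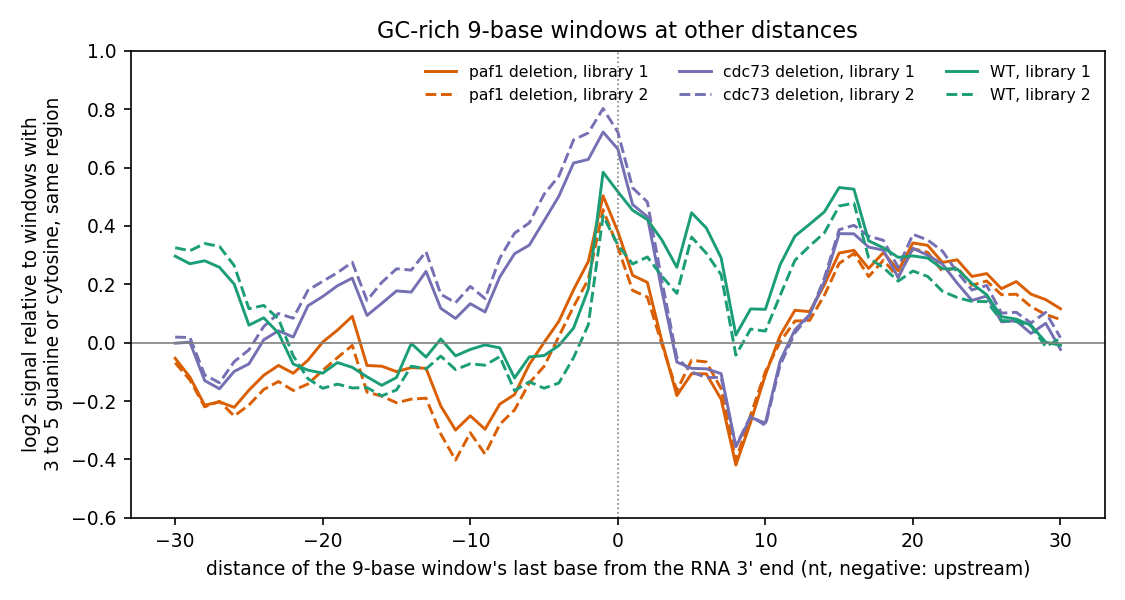
Log2 signal at GC-rich 9-base windows relative to windows with 3 to 5 G or C in the same region, by the distance of the window's last base from the RNA 3′ end in nt; each line is a library. All libraries have a maximum 1 nt upstream and a second one 15 to 20 nt downstream, and the deletions dip to -0.35 to -0.42 at 8 nt downstream, where WT lies at 0.03 and -0.04.

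A position counted as a pause site where both libraries of a genotype exceeded the local mean by 3 SD, taken over 50 nt on either side. GC-rich positions held 10 pause sites in paf1△, 20 in cdc73△ and 10 in WT, that is 2.74%, 5.48% and 2.74% of them. In the 3 to 5 class the shares were 1.66% in paf1△, 1.84% in cdc73△ and 1.90% in WT. Over all positions scored for pauses they were 1.66% in paf1△, 1.97% in cdc73△ and 1.92% in WT. Positions 437 in the 5′ ETS and 5010 in 25S were pause sites in all 3 genotypes. Position 5010 (chromosome XII 462560) had the highest mean signal of all GC-rich positions, with 2497 and 2501 in paf1△, 3888 and 4241 in cdc73△ and 1364 and 1992 in WT. It was higher in cdc73△ than in WT (log2 1.28, limma adjusted p = 0.00556), and its log2 change in paf1△ was 0.59 with an adjusted p of 0.142 by limma. Positions 4772 and 6543 had higher means than 5010 in WT, and position 5046 had a higher mean in paf1△. The hybrid of 5010 is shown as that of the GC-rich position with the highest mean over all libraries.
Position 5010, chrXII:462550-462578: auggcuggaaGAGGCCAGCaccuuugcug

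The 10 highest GC-rich positions were 5010, 5046, 6318, 6543, 4429, 4772 and 5859 in 25S, 1580 and 1579 in 18S and 437 in the 5′ ETS. Position 6543 had 959 and 888 in paf1△, 528 and 391 in cdc73△ and 2349 and 1624 in WT, and it was lower in both deletions (log2 -1.04 in paf1△ and -2.0 in cdc73△, limma adjusted p 0.0114 and 0.000952). Position 4429 had 728 and 772 in paf1△, 1459 and 1435 in cdc73△ and 683 and 690 in WT. Position 5859 had 776 and 818 in paf1△, 700 and 614 in cdc73△ and 1133 and 921 in WT, and was called lower in cdc73△ (log2 -0.61, limma adjusted p = 0.0176).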

How the data were processed

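Pol I NET-seq was read from 3 deposited tables, 1 for each pair of genotypes, which hold a signal value for each library at 6858 positions. Per the labels' protocols, frozen lysates were used for immunoprecipitation of Pol I, and RNA 3′ ends received a linker with a molecular identifier. Per the submitters' processing notes, the tools were STAR 2.7.1a, cutadapt 3.4 and bcl2fastq 2.20.00, with SAMtools 1.6, R 4.3.2, FastQC 0.11.7 and bedtools 2.28.0, on build R64. How the molecular identifiers and the repeated rDNA copies were handled is not given in the sources used here. Per the values, the deposited signal is reads scaled to 1000000 over positions 1 to 6739, and all per-sample columns were mapped to libraries by name. Dividing by the smallest value gave whole reads within 0.1 read at 99.9% or more of positions in all columns. The positions that were not whole numbered 10 and 1 in paf1△ and 7 and 3 in cdc73△. Reads of WT and cdc73△ entered edgeR 4.0.16 as an alternative, and those of paf1△ did not. The totals printed for the deletions take the smallest value as 1 read.

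Position 1 is the first transcribed base, chromosome XII 467569 on the minus strand, and all 7 regions had the ends of the RefSeq genes of R64. Hybrids were counted from position 9, the first with 9 bases behind it. Positions above 0 in at least 2 of 4 libraries were fitted with limma 3.58.1 (lmFit, eBayes with trend) in R 4.3.3 on log2(signal + 0.5 times the median of values above 0), without a block, and adjusted by Benjamini-Hochberg over all of them. Alternatives changed the constant, the filter, scaling, hybrid length, GC threshold and libraries. The fitting steps were tested on simulated data. Same-numbered libraries deviated together with a correlation of 0.06 for paf1△ and WT, -0.01 for cdc73△ and WT and -0.20 for paf1△ and cdc73△, so the numbers were not taken to pair them.

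Named positions are, in each comparison, the 5 largest rises and falls among GC-rich positions with an adjusted p under 0.05, a mean signal not under that of the median tested position and no overlap of groups. The 10 highest GC-rich positions, the position with 9 of 9, the 8 longest tracts and the longest of each region are also named, and others were chosen after their values were seen. The members and lists were chosen with earlier results of these data known. Python 3.11.15, numpy 2.4.6, pandas 2.3.3, scipy 1.17.1 and matplotlib 3.10.9 were used.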

Additional observations from a re-analysis of the deposited data

Results flagged for a closer look

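Several log2 ratios lay on opposite sides of the 3 to 5 class in all libraries of a pair of genotypes, and these differences of means were not tested. At GC-rich positions with 0 to 2 G the difference from WT was 0.49 in paf1△ and 0.796 in cdc73△. At those with 3 G it was 0.373 in paf1△ and 0.645 in cdc73△, and over both classes together 0.405 in paf1△ and 0.691 in cdc73△. All deletion libraries were above 0 there and both WT libraries below, but in paf1△ this rested on 1 position. Without position 5046 the 3-G class had -0.04 and -0.15 in paf1△, 0.0068 and 0.12 in cdc73△ and -0.13 and -0.21 in WT, and both classes together had 0.04 and -0.07 in paf1△, 0.15 and 0.25 in cdc73△ and -0.21 and -0.26 in WT. Without position 2983 the 0 to 2 class had -0.0072 and -0.09 in paf1△, 0.21 and 0.25 in cdc73△ and -0.40 and -0.40 in WT. For windows ending 27 nt upstream of the RNA 3′ end, the deletions were below 0 and WT above it, with a difference of -0.496 in paf1△ and -0.442 in cdc73△. For windows ending 18 nt upstream, cdc73△ was above 0 and WT below it, with a difference of 0.368. For windows ending 9 nt upstream, cdc73△ exceeded WT by 0.17, and paf1△ minus cdc73△ was -0.467. For windows ending 9 nt downstream, the difference from WT was -0.341 in paf1△ and -0.335 in cdc73△. At position 2596 in ITS1, cdc73△ lay above WT and paf1△ below it, and the deletions differed by log2 -1.88 (limma adjusted p = 4.17e-06).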

How the results depend on the processing

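With 8 of 9 as the threshold, GC-rich positions numbered 74. Of these, 15 (20.3%) were higher and 16 (21.6%) lower in paf1△ against WT, and 27 (36.5%) and 15 (20.3%) in cdc73△ against WT. In paf1△ against cdc73△, 14 (18.9%) were higher and 30 (40.5%) lower. The hybrid rule does not enter the fits, so all positions kept 29.6% and 19.6%, 30.0% and 29.4%, and 34.4% and 20.6% in the same order. With a hybrid of 8 bases there were 640, with 156 (24.4%) and 159 (24.8%), 207 and 193, and 149 and 194 in the same order. With 10 bases there were 200, with 47 (23.5%) and 45 (22.5%), 80 (40%) and 44 (22%), and 34 (17%) and 75 (37.5%). The number of G or C required changed with the length, so these settings differ from the main rule in both. The shares moved too: with 8 bases 32.3% were higher and 30.2% lower in cdc73△ against WT, and 23.3% and 30.3% in paf1△ against cdc73△. The log2 ratio of paf1△ was 0.30 with capped signal, 0.20 on means of log2 values, 0.50 with the same 3′ base, 0.39 without the mature 3′ ends, 0.23 with 8 bases and 0.21 with 10 bases. That of cdc73△ was 0.57 capped, 0.42 on means of log2 values, 0.81 with the same 3′ base, 0.45 with 8 bases and 0.56 with 10 bases, and that of WT was 0.17 with 10 bases. The difference of paf1△ from WT was -0.17 with 8 bases, and it changed sign to 0.039 with 10 bases and to 0.019 without WT replicate 1. The difference of cdc73△ from WT was 0.17 capped, 0.10 on means of log2 values, 0.045 with 8 bases and 0.39 with 10 bases. That of paf1△ from cdc73△ was -0.27 capped, -0.21 on means of log2 values and -0.22 with 8 bases. The causes were not tested. The gap between 5 or more G and 3 or fewer, whose alternatives were chosen after seeing the data, was 0.37 in paf1△ and 0.41 in cdc73△ with capped signal, 0.32 in cdc73△ and 0.64 in WT on means of log2 values, and 0.33 in cdc73△ and 0.88 in WT without the 10 highest GC-rich positions.

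Leaving out each library in turn gave ratios of 0.33 to 0.38 in paf1△, 0.66 to 0.72 in cdc73△ and 0.33 to 0.52 in WT. The differences were -0.16 to 0.02 for paf1△ from WT, 0.18 to 0.36 for cdc73△ from WT and -0.37 to -0.31 for paf1△ from cdc73△, and the guanine gap was 0.13 to 0.29 in paf1△, 0.13 to 0.26 in cdc73△ and 0.93 to 1.18 in WT. Calls were 66 to 111 higher and 69 to 110 lower for paf1△ against WT, 104 to 160 and 64 to 111 for cdc73△ against WT, and 43 to 73 and 93 to 134 for paf1△ against cdc73△, with a lone library assumed to vary like the other genotype's. With the replicate number as a block, the calls were 90 higher and 94 lower for paf1△ against WT, 134 and 95 for cdc73△ against WT, and 67 and 109 for paf1△ against cdc73△. Since same-numbered deletion libraries deviated oppositely, a crossed block was added after seeing the data and gave 81 higher and 150 lower. The shares over all positions are not at hand for the blocked fits, so these counts show only how the calls depend on the model. The positions named for their rise or fall kept direction and call in every refit that kept all libraries, and kept direction when a library was left out. That is 190 checks with all libraries, each of 1 named position in 1 refit. These refits used the libraries from which the positions were chosen, so they are not independent checks. The reads of the WT libraries limit what low positions can show.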
